A study of Mus musculus and Rattus norvegicus with 28 samples.

Results

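The genes described here are the receptors for corticosteroids and thyroid hormone, the enzymes that activate those hormones inside cells, and genes that the receptors control directly, 10 genes in all. They were chosen by symbol: Nr3c1, Nr3c2, Thra and Thrb (receptors), Hsd11b1 and Dio2 (activating enzymes), and Fkbp5, Tsc22d3, Sgk1 and Klf9 (targets). All 10 had a row among the 55450 genes of the mouse libraries and the 32623 genes of the rat libraries, and 7 of them in mouse and 8 in rat passed the filter on low values and were tested. RNA-seq was made on left ventricular cells of wild-type C57BL/6 mice of both sexes at embryonic day 18.5 (E18.5) and postnatal days 1, 3 and 7 (P1, P3 and P7), with 2 libraries at each time point, and ATAC-seq, which marks open chromatin, on a further 2 libraries at each. The cells were freed with trypsin and collagenase and pre-plated in serum-containing medium so that other cell types attached and were discarded. Neonatal rat ventricular cardiomyocytes (NRVCs) from Sprague Dawley rats at P1 were treated 1 day after plating with 100 nM trichostatin A (TSA), an inhibitor of histone deacetylases, or with its solvent DMSO, in 3 libraries each. The labels do not tie the replicates to separate litters or cultures, so the tests measure the spread between libraries.

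Corticosteroids and thyroid hormone both take part in the maturation of the heart. Hormone levels at the ages studied were not measured here. Each hormone enters the cell and acts through nuclear receptors that bind short DNA elements, and each is gated by enzymes within the cell: 11-beta-hydroxysteroid dehydrogenase type 1 (Hsd11b1) remakes active corticosteroid from its inactive keto form, and the type 2 deiodinase (Dio2) converts the prohormone thyroxine to active triiodothyronine. The glucocorticoid receptor (Nr3c1) and the mineralocorticoid receptor (Nr3c2) bind the same DNA element, while the thyroid receptors (Thra and Thrb) bind repeated hexamers as partners of the retinoid X receptors.

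Values are gene FPKM, fragment counts scaled by transcript length and by the number of aligned fragments, summed over the transcripts of a gene. Changes are differences in log2(FPKM + 1) from limma with their standard error (SE), and a gene was called when its Benjamini-Hochberg adjusted p was under 0.05 and its change exceeded 1. Libraries held an estimated 29320000 to 37505000 aligned reads in mouse and 28214000 to 38490000 in rat. The marker genes of several cell types differed with age in the mouse libraries. The summed FPKM of 14 cardiomyocyte genes was 29734 to 38651 at E18.5, 14300 to 22806 at P1, 7776 to 9465 at P3 and 1108 to 2448 at P7, that of 12 fibroblast genes was 520 to 535, 1610 to 1914, 2113 to 2226 and 3688 to 4534, and that of 7 erythroid genes was 29046 to 35395 at E18.5 and at most 41.0 later. All 14 cardiomyocyte genes were called lower and 11 of 12 fibroblast genes higher at P7 against E18.5, and no gene of either list was at 0 in every library. The part of these marker differences in the results was not tested, and in bulk RNA fewer cells of a type and less RNA per cell cannot be told apart. The median change of all genes tested at P7 was 0.14, and it was 0.40 with TPM and 0.05 with size factors. The split of calls at P7 was 2155 higher and 1715 lower, 3361 and 1576 with TPM, and 1862 and 1922 with size factors.

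The sequences below, from the mouse reference GRCm38.p6, are stretches at the members' starts picked because they held letters of the receptors' elements and no annotated exon. Those of Sgk1 and Tsc22d3 are from RefSeq promoters and the others from promoter peaks. Further stretches of Fkbp5 and Sgk1 that held such letters are not shown. How many windows of members were searched and matched is not given, so no enrichment is read from the stretches. They are printed on the strand of the gene with matching letters in capitals, AGGTCA for Thra and the corticosteroid letters for the other genes. They show where those letters lay relative to the open chromatin described further on. Letters searched on both strands were ACANNNTGT, the core of the corticosteroid element, AGAACA, a single arm of it, and AGGTCA, the hexamer bound by thyroid receptors. Of 34139 promoter peak windows of 300 bases, 6.66% held ACANNNTGT, 16.1% AGAACA and 15.0% AGGTCA, and of 32851 RefSeq promoters of 300 bases, 6.85%, 19.0% and 16.3% did. A pair of AGGTCA hexamers in direct repeat with 4 bases between them was in 5 of these promoters and in none of those of the 8 members matched, all but Thra and Nr3c1.
Hsd11b1, intron, chr1:193262044-193262343, minus strand: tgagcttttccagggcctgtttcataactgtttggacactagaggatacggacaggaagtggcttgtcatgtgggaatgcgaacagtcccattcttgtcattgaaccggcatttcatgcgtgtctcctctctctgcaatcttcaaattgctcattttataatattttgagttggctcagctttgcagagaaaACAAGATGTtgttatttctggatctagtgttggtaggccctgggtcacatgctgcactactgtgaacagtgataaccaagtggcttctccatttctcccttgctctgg
Hsd11b1, before the Hsd11b1-202 start, chr1:193243666-193243965, minus strand: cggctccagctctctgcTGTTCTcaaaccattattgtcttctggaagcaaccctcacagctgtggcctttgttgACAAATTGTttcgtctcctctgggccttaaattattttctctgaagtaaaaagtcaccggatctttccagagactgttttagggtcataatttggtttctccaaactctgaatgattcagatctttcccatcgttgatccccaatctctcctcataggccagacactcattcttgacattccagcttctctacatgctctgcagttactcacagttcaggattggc
Fkbp5, before the Fkbp5-207 start, chr17:28518059-28518358, minus strand: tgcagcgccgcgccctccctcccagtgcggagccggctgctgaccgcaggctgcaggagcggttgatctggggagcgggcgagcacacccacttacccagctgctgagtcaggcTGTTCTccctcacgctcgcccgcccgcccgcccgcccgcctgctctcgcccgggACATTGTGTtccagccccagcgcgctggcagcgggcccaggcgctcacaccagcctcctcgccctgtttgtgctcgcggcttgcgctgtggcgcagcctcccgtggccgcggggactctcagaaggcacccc
Tsc22d3, before the Tsc22d3-203 start, chrX:140600660-140600772, minus strand: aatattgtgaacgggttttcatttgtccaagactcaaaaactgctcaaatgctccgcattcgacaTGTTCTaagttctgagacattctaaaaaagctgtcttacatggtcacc
Sgk1, before the Sgk1-202 start, chr10:21993640-21993889, plus strand: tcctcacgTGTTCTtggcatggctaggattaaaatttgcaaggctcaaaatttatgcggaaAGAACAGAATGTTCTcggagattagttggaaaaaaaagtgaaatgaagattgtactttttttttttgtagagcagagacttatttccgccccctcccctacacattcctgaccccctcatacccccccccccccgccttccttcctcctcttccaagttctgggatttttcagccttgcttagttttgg
Thra, intron, chr11:98754822-98755121, plus strand: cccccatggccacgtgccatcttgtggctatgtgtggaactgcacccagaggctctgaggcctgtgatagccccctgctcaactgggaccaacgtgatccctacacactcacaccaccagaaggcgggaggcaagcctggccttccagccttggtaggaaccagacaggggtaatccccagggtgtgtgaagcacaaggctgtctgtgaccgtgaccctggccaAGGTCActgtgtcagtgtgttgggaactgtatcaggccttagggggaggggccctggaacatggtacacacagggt
In the Sgk1 stretch the arms AGAACA and TGTTCT faced each other with 3 bases between them, starting 189 bases before the start, which makes a complete palindromic corticosteroid element. That arrangement, looked for after the sequence had been seen, was in 3 of the 32851 promoters and in 2 of the 34139 peak windows.

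Among the receptors, the glucocorticoid receptor gene was measured at a similar level at all ages. The summed FPKM of the thyroid receptor gene Thra was lower after birth, mostly in a transcript that overlaps another gene. Nr3c1 (ENSMUSG00000024431.15, chr18:39410545-39519421, minus strand) was at 15.1 and 10.6 FPKM in the E18.5 libraries, then 17.9 and 15.9 at P1, 16.3 and 10.8 at P3, and finally 14.6 and 15.0 at P7. The ranges at E18.5, P3 and P7 overlapped, and both P1 libraries lay above both E18.5 libraries. The change from E18.5 was 0.39 ± 0.22 (SE) at P1, 0.07 ± 0.22 at P3 and 0.21 ± 0.22 at P7, with limma adjusted p of 0.193, 0.825 and 0.448. Nr3c1 was not called at any age.

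Nr3c2 (ENSMUSG00000031618.13, chr8:76899442-77245012, plus strand), which serves both aldosterone and glucocorticoids, was at 0.55 and 0.68 FPKM at E18.5, then 0.38 and 0.36 at P1, 0.32 and 0.28 at P3, and finally 0.06 and 0.09 at P7. Each time point's pair lay below the pair before it. These levels were under the filter, and a fit with no filter gave changes of -0.24 ± 0.07 at P1, -0.31 ± 0.07 at P3 and -0.59 ± 0.07 at P7 (limma adjusted p 0.0666, 0.0238 and 0.00233), sizes that the added 1 holds down at such levels and that are not calls. FPKM of Nr3c1 was 15.5 and 27.6 times that of Nr3c2 in the E18.5 libraries and 167 and 240 times at P7. The exons of the transcript Nr3c2-204 overlap 155 bases of Gm10649 on the other strand, and the libraries were not stranded.

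Thra (ENSMUSG00000058756.13, chr11:98740638-98769006, plus strand) was at 40.0 and 52.1 FPKM at E18.5, then 18.2 and 22.5 at P1, 20.0 and 19.0 at P3, and finally 19.9 and 21.2 at P7. Both fetal libraries lay above all 6 postnatal libraries, and the postnatal levels overlapped. Thra fell by 1.13 ± 0.16 at P1, 1.19 ± 0.16 at P3 and 1.11 ± 0.16 at P7 (limma adjusted p 0.00135, 0.000763 and 0.000727), and the change from P1 to P7 was 0.02 ± 0.16. With TPM the changes were -0.92, -0.96 and -0.87 and no longer exceeded 1. Without E18.5 replicate 2 they were -0.95 at P1 and -0.93 at P7, and without P1 replicate 1 the change at P1 was -0.99.

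Most of the fall of Thra lay in a transcript that overlaps another gene. Thra-201, which encodes the 492-codon product known as TR-alpha2 that does not bind the hormone, was at 30.8 and 40.8 FPKM at E18.5, then 11.4 and 14.8 at P1, 11.7 and 9.87 at P3, and finally 14.2 and 13.1 at P7. Thra-202, which encodes the 410-codon receptor TR-alpha1 that does bind it, was at 6.52 and 7.11, 5.44 and 5.68, 7.49 and 8.21, and 5.17 and 6.79 FPKM. The levels of Thra-202 at P7 overlapped those at E18.5, the P1 pair lay below the E18.5 pair and the P3 pair above it. Exons of Thra-201 share 263 bases with Nr1d1, a repressor of the circadian clock transcribed from the other strand, and reads of the 2 genes there cannot be told apart. Nr1d1 itself was at 27.1 and 41.4 FPKM at E18.5 and between 8.50 and 10.4 in all 6 postnatal libraries. Summed over the transcripts with no exon that overlaps Nr1d1, Thra was at 8.51 and 9.52 FPKM at E18.5 and 5.46 and 7.63 at P7. Its changes were then -0.39 ± 0.18, -0.13 ± 0.18 and -0.42 ± 0.18 (limma adjusted p 0.113, 0.564 and 0.0739), and Thra was not called at any age. The part of Nr1d1 reads in the fall of Thra was not tested.

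Thrb (ENSMUSG00000021779.17, chr14:17660261-18038090, plus strand), the other thyroid receptor gene, stayed under 1 FPKM, at 0.12 and 0.26 at E18.5, then 0.38 and 0.89 at P1, 0.82 and 0.73 at P3, and finally 0.53 and 0.58 at P7. Both fetal libraries lay below all 6 postnatal libraries. With no filter its changes were 0.44 ± 0.16, 0.57 ± 0.16 and 0.38 ± 0.16 (limma adjusted p 0.133, 0.0571 and 0.155). FPKM of Thra was 197 and 328 times that of Thrb at E18.5 and 36.8 and 37.7 times at P7.

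**Figure D1:**
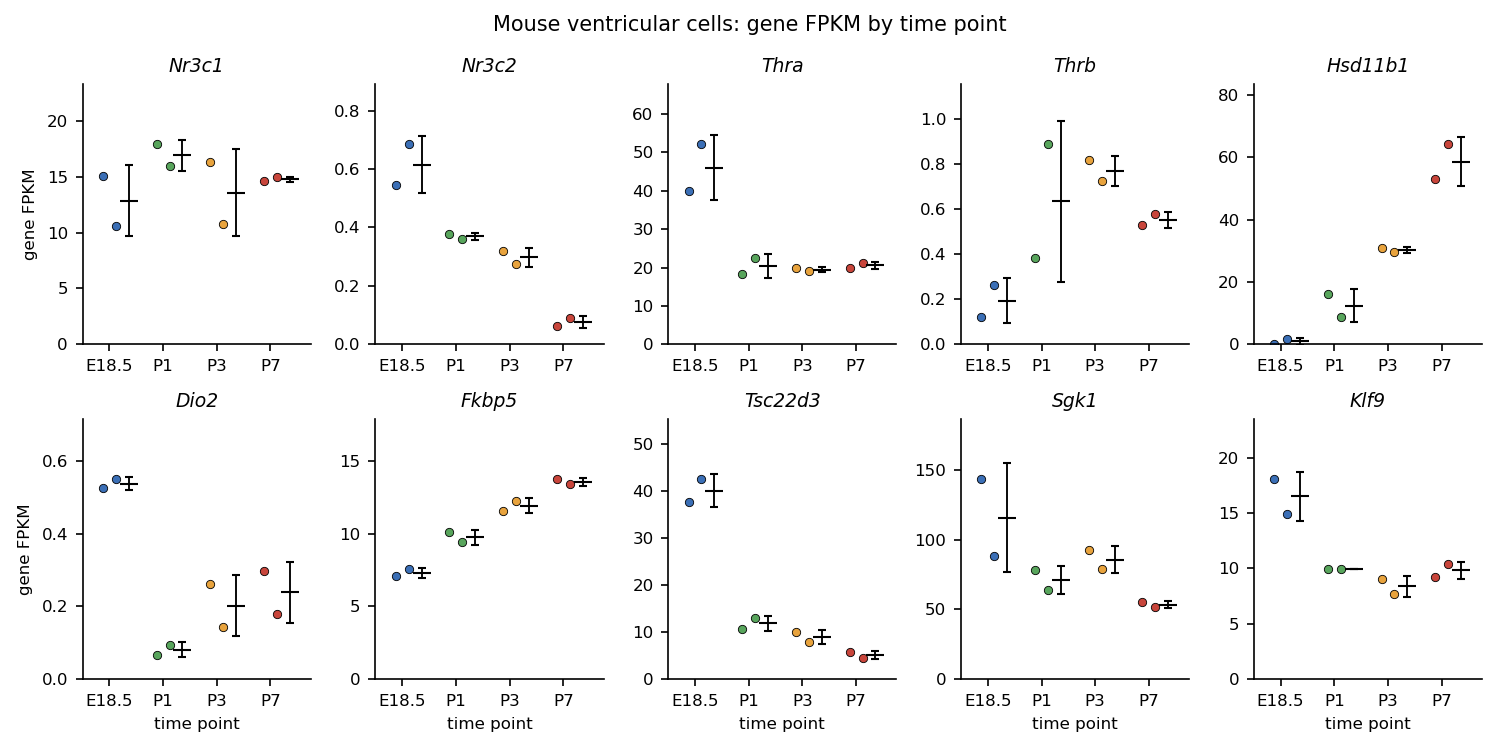
Gene FPKM of the 10 members in mouse ventricular cells, on an axis from 0 for each gene, by time point (E18.5, P1, P3, P7). Dots are the 2 libraries of a time point and the bar beside them is their mean ± SD; Hsd11b1 climbs from 0.17 and 1.73 to 52.9 and 64.1, and Tsc22d3 descends from 37.6 and 42.6 to 5.81 and 4.56.

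Of the activating enzymes, Hsd11b1 had the largest change of any member tested. Hsd11b1 (ENSMUSG00000016194.14, chr1:193221634-193264075, minus strand) was at 0.17 and 1.73 FPKM at E18.5, then 16.2 and 8.60 at P1, 30.9 and 29.6 at P3, and finally 52.9 and 64.1 at P7. Each time point's pair lay above the pair before it. Hsd11b1 rose by 2.85 ± 0.40 at P1, 4.13 ± 0.40 at P3 and 5.05 ± 0.40 at P7 (limma adjusted p 0.00111, 0.000150 and 3.54e-05), and by 2.20 ± 0.40 from P1 to P7 (adjusted p 0.00698). The last of these lost its call with a pseudocount of 0.1, with no filter and without P7 replicate 2 (adjusted p 0.0754, 0.0516 and 0.0516). For Hsd11b1 the 2 fetal libraries differed by more on the log2 scale than the 2 libraries of any other time point. The ratio of mean FPKM, 61.6 at P7 against E18.5, rests on these fetal libraries.

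Most of the rise was in Hsd11b1-205, the transcript with the most upstream start. It was at 0.01 and 0.41 FPKM at E18.5, then 6.86 and 7.32 at P1, 24.99 and 24.40 at P3, and finally 46.4 and 53.1 at P7, when it made up 87.8% and 82.8% of the gene. Hsd11b1-201, whose start lies within the gene, encodes a product of the same 292 codons. It was at 0.16 and 0.21, 2.82 and 0.56, 3.97 and 3.13, and 3.53 and 7.14 FPKM. Both transcripts were above their fetal levels in all 6 postnatal libraries.

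Hsd11b1 moved with the fibroblast genes listed above, 8 of 12 of which were called higher at P1 and again at P3, with 11 at P7, while their summed FPKM was 520 to 535 at E18.5 and 3688 to 4534 at P7. Pdgfra, a receptor that marks fibroblasts, was at 1.40 and 1.65 FPKM at E18.5 and 47.0 and 51.9 at P7. The part of fibroblast or smooth muscle RNA in the rise of Hsd11b1 was not tested. In the rat cells the 11 fibroblast genes with a row summed to 7040 to 7947 FPKM under DMSO and 4141 to 6608 under TSA. None of the 10 tested was called, with a median change of -0.29. Mean FPKM went from 3220 to 2432 for Col1a1 and from 2424 to 1712 for Col3a1, whose groups did not overlap. That of Pdgfra was 34.6 under DMSO and 36.5 under TSA, and its groups overlapped. Hsd11b1 was at 14.9 to 22.1 FPKM under DMSO and 25.2 to 47.9 under TSA. The part of fibroblast RNA in the rat values was not tested either.

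Dio2 (ENSMUSG00000007682.6, chr12:90724552-90738438, minus strand) was at 0.53 and 0.55 FPKM at E18.5, then 0.07 and 0.10 at P1, 0.26 and 0.14 at P3, and finally 0.30 and 0.18 at P7. Both fetal libraries lay above all 6 postnatal libraries. With no filter the changes were -0.51 ± 0.07, -0.36 ± 0.07 and -0.31 ± 0.07 (limma adjusted p 0.00877, 0.0205 and 0.0271), on values too low for a call. Its single transcript shares 100 bases with Gm26512 on the other strand.

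The 4 targets did not move together: Tsc22d3 fell at every age, Sgk1 fell at P7, Klf9 was lower and Fkbp5 higher without passing the size threshold. Tsc22d3 (ENSMUSG00000031431.13, chrX:140539528-140600659, minus strand), which encodes the leucine zipper protein GILZ that carries part of the anti-inflammatory action of corticosteroids, was at 37.6 and 42.6 FPKM at E18.5, then 10.8 and 13.0 at P1, 10.1 and 7.95 at P3, and finally 5.81 and 4.56 at P7. Each time point's pair lay below the pair before it. Tsc22d3 fell by 1.68 ± 0.18, 2.04 ± 0.18 and 2.74 ± 0.18 (limma adjusted p 0.000361, 0.000104 and 1.89e-05) and by 1.06 ± 0.18 from P1 to P7 (adjusted p 0.00537). The fall from P1 to P7 was -0.94 without P1 replicate 2 and -0.91 without P7 replicate 2, under the size threshold.

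Tsc22d3 has a distal and a proximal start, and transcripts from both were lower after birth. Tsc22d3-203, the 201-codon form whose upstream sequence is printed above, was at 15.0 and 18.6 FPKM at E18.5, then 2.76 and 4.62 at P1, 3.44 and 1.55 at P3, and finally 0.85 and 0.46 at P7. Tsc22d3-201, the 137-codon GILZ form from the proximal start, was at 9.27 and 11.9998, 6.58 and 4.63, 5.70 and 4.06, and 3.22 and 2.75 FPKM. The share of the gene in Tsc22d3-203 was 39.9% and 43.7% at E18.5 and 14.7% and 10.1% at P7. The share from the distal start was thus lower at P7. A transcript that keeps an intron, Tsc22d3-205, was at 10.6 and 8.67 FPKM at E18.5 and at most 0.64 in the postnatal libraries.

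Sgk1 (ENSMUSG00000019970.15, chr10:21882184-21999903, plus strand), a kinase induced by corticosteroids and by osmotic stress that keeps sodium channels at the membrane, was the member with the highest level. It was at 143 and 87.9 FPKM at E18.5, then 78.1 and 63.8 at P1, 92.5 and 78.6 at P3, and finally 55.2 and 51.6 at P7. The P1 and P7 pairs lay below the fetal pair, and the P3 pair overlapped it. Sgk1 fell by 1.06 ± 0.22 at P7 (limma adjusted p 0.00443). The changes at P1 and P3 were -0.66 ± 0.22 and -0.39 ± 0.22 and were not called. The fall at P7 was -0.80 with TPM and -0.71 without E18.5 replicate 1, both under the size threshold. The smaller changes rested on which fetal library was kept: without E18.5 replicate 1 they were -0.31 at P1 and -0.044 at P3, and without E18.5 replicate 2 they were -1.01, which was called, and -0.74. Most of the gene was in Sgk1-202, the transcript that starts next to the palindromic element, at 105 and 68.2 FPKM at E18.5 and 51.1 and 43.8 at P1. At P7 it was at 7.37 in replicate 1, where Sgk1-203 took 41.1 FPKM, and at 36.6 in replicate 2, where Sgk1-203 had 1.19, so the assignment of reads between these transcripts was not stable.

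Fkbp5 (ENSMUSG00000024222.17, chr17:28399094-28517527, minus strand), a chaperone of the receptor complex that dampens its own inducer, was at 7.06 and 7.55 FPKM at E18.5, then 10.1 and 9.39 at P1, 11.6 and 12.3 at P3, and finally 13.7 and 13.4 at P7. Each pair lay above the pair before it, and 96.9% or more of the gene was in Fkbp5-201 in every library. The changes were 0.37 ± 0.13, 0.64 ± 0.13 and 0.81 ± 0.13 (limma adjusted p 0.0529, 0.00492 and 0.00119), so the levels at P3 and P7 passed the adjusted p and not the size. With TPM the change at P7 was 1.10 and called.

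Klf9 (ENSMUSG00000033863.2, chr19:23141226-23168134, plus strand), a zinc finger repressor induced by both hormones, was at 18.1 and 15.0 FPKM at E18.5, then 9.92 and 9.96 at P1, 9.02 and 7.72 at P3, and finally 9.25 and 10.4 at P7. Both fetal libraries lay above all 6 postnatal libraries. The changes were -0.67 ± 0.15, -0.90 ± 0.15 and -0.69 ± 0.15 (limma adjusted p 0.00982, 0.00204 and 0.00575). At P3 the change was -1.04 with size factors, -1.03 without E18.5 replicate 2 and -1.0005 without P3 replicate 1, and called in each.

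Counted together, 3 of the 7 members tested in mouse were called at P1, where 16.2% of all genes tested were called. They were 1 higher (10.1% of all genes) and 2 lower (6.06%). At P3 the count was 3 against 21.9%, with 1 higher (13%) and 2 lower (8.88%), and at P7 it was 4 against 27.7%, with 1 higher (15.4%) and 3 lower (12.3%). Between P1 and P7 it was 2 against 8.91%, with 1 higher (3.45%) and 1 lower (5.46%). The comparisons with E18.5 share its 2 libraries. The pairs of 7 members did not overlap at P1 (69.6% of all genes), with 3 higher (43.5%) and 4 lower (26%). At P3 this held for 5 (74.8%), with 2 higher (46.3%) and 3 lower (28.4%), and at P7 for 6 (78.3%), with 2 higher (45.6%) and 4 lower (32.7%). Between P1 and P7 it held for 5 (62.7%), with 2 higher (30.9%) and 3 lower (31.8%). These shares of members without overlap, 5 to 7 of 7, are to be read against those high shares of all genes. Like Tsc22d3, most of 12 immediate early and dissociation genes, such as Fos and Atf3, which respond to the handling of cells, were lower after birth. Against E18.5, 11 of these were called lower at P1, 10 at P3 and 8 at P7. Their summed FPKM was 1540 to 2276 at E18.5, 324 to 377 at P1, 299 to 376 at P3 and 632 to 748 at P7. From P1 to P7 the list went the other way, with 3 genes called higher, none lower and a median change of 0.39, while Tsc22d3 fell further. The part of handling in the falls was not tested.

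**Figure D2:**
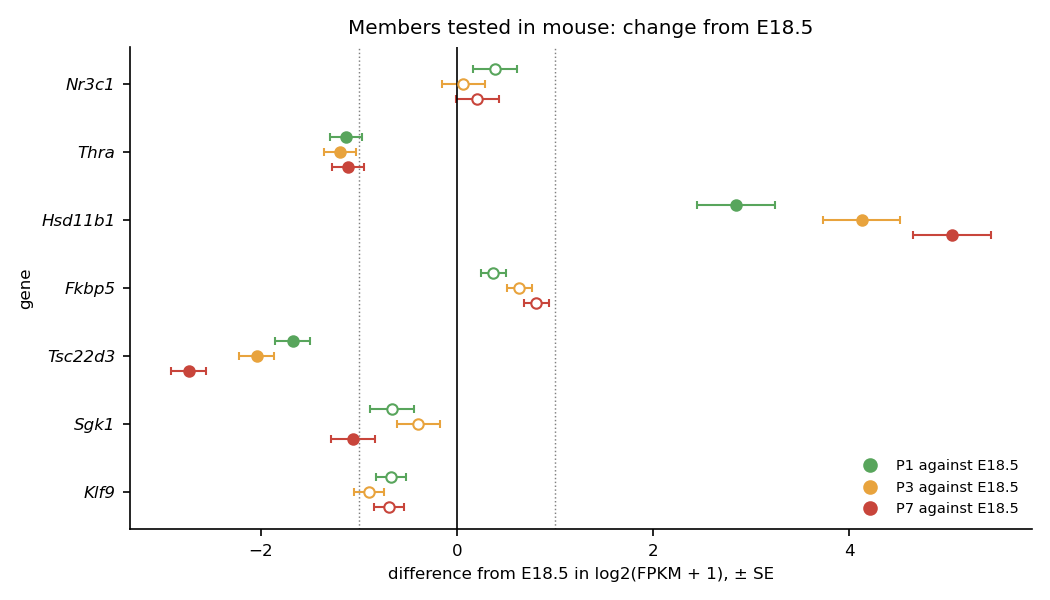
Difference from E18.5 in log2(FPKM + 1), with its SE from limma, for the 7 members tested in mouse at P1, P3 and P7. Filled dots were called and open dots were not; dotted lines mark a size of 1; Hsd11b1 reaches 5.05 and Tsc22d3 -2.74 at P7, while Nr3c1 stays within 0.39.

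**Figure D3:**
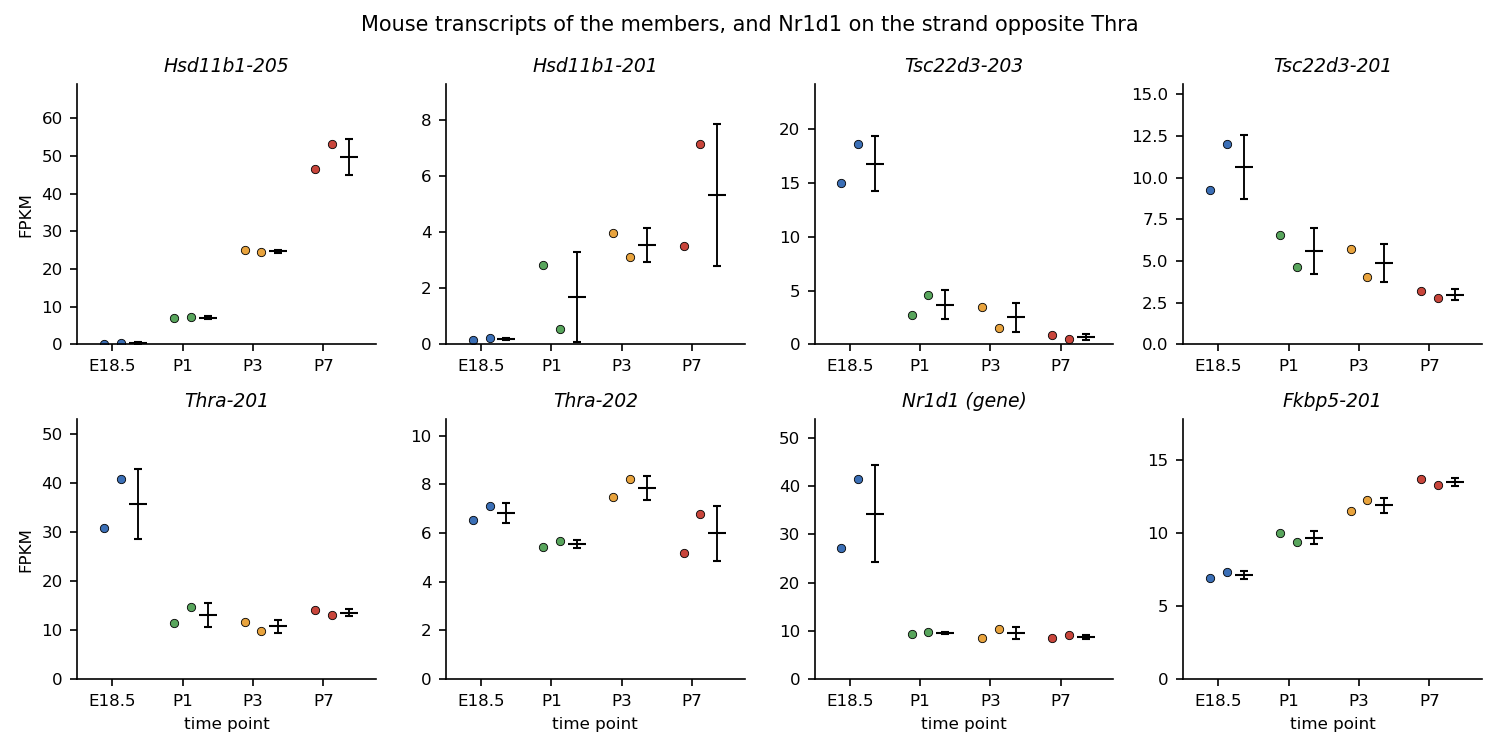
FPKM of single transcripts by time point in the mouse libraries, with Nr1d1 as a whole gene, on axes from 0. Dots are libraries and the bar is the mean ± SD of 2; Thra-201 and Nr1d1 are high at E18.5 and lower at all later ages, while Thra-202 stays between 5.17 and 8.21.

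Lists of other genes of the 2 pathways were read in the same way, and all their counts are to be set against the shares of all genes tested. Those called higher were 10.1% at P1, 13% at P3 and 15.4% at P7. Those called lower were 6.06%, 8.88% and 12.3%. Among 13 receptor chaperones and cofactors, all tested, 1 was called higher and 1 lower at P1, and 1 higher at P3 and at P7, with a median change at P7 of -0.19 against 0.14 over all genes. The summed level of the list was 2356 to 2543 FPKM at E18.5 and 2304 FPKM in both P7 libraries.

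Of 8 genes for corticosteroid supply, 4 were tested and 2 were called higher at each of P1, P3 and P7. H6pd, which makes the NADPH that Hsd11b1 uses inside the endoplasmic reticulum, rose from 3.93 and 4.89 FPKM at E18.5 to 57.0 and 58.2 at P7 (3.44, limma adjusted p 2.93e-06). Abcb1b, an exporter that can carry steroids out of the cell, rose from 1.29 and 1.16 to 7.88 and 8.25 FPKM (2.03, adjusted p 0.000155). Hsd11b2, which inactivates corticosteroid, was at 0.39 FPKM or less in every mouse library, and the adrenal enzymes Cyp11b1 and Cyp11b2 were at 0 in all of them.

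Of 20 other corticosteroid targets, 18 were tested, with 1 called higher and 6 lower at P1, 1 higher and 7 lower at P3, and 5 higher and 6 lower at P7, and a median change at P7 of -0.67. The largest rises at P7 were of Lcn2, an iron-binding lipocalin, from 3.19 and 4.32 to 123 and 122 FPKM (4.71, limma adjusted p 2.93e-06), and of Angptl4, an inhibitor of lipoprotein lipase, from 11.9 and 5.10 to 75.1 and 97.3 FPKM (3.29, adjusted p 0.00114). The largest falls were of Trim63, the muscle ubiquitin ligase MuRF1, from 119 and 102 to 14.6 and 5.57 FPKM (-3.46, limma adjusted p 0.000128), and of Pdk4, a brake on glucose oxidation, from 58.1 and 54.7 to 5.81 and 4.72 FPKM (-3.20, adjusted p 8.14e-05). The list therefore held members that rose and members that fell at each age.

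Of 12 genes for thyroid hormone transport, deiodination and receptor partners, 8 were tested and 1 was called higher at each of P1, P3 and P7, with a median change at P7 of -0.30. The deiodinase Dio1 was at 0 in every mouse library.

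Of 15 thyroid hormone targets of the heart, 11 were tested, with 1 called higher and 1 lower at P1, 4 lower at P3 and 9 lower at P7, and a median change at P7 of -2.80. Myh7, the fetal myosin heavy chain that thyroid hormone represses, fell from 1620 and 2078 FPKM at E18.5 to 36.6 and 73.9 at P1 and 7.51 and 5.20 at P7 (-7.98, limma adjusted p 2.93e-06). Myh6, the adult myosin heavy chain that it induces, was at 1243 and 1548 FPKM at E18.5, then 1256 and 3047 at P1, 853 and 1062 at P3, and finally 190 and 68.5 at P7 (-3.59, adjusted p 0.000583). Myh7 was thus below its fetal level in all 6 postnatal libraries, while Myh6 at P1 overlapped its fetal level. Myh6, Myh7, Pln and Ryr2 of this list are also among the 14 cardiomyocyte genes, all of which were called lower at P7.

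The markers of other cells moved less evenly. Over all genes tested 15.4% were called higher and 12.3% lower at P7 against E18.5. At P7 against E18.5, 1 of 10 endothelial genes was called higher and 2 lower, 5 of 10 smooth muscle and pericyte genes higher and 3 lower, 1 of 9 macrophage genes higher and 1 lower, 1 of 6 epicardial genes higher and none lower, and all 7 erythroid genes lower.

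At their promoters the members held more peaks at P3 and P7 than before, and so did a larger share of all genes. A promoter peak here is an ATAC-seq peak within 2.5 kb of a transcript start, with its fold enrichment over local background. Of the 10 members, 8 and 7 held such a peak in the E18.5 libraries, then 8 and 7 at P1, 10 and 9 at P3, and finally 9 and 10 at P7. Over all genes tested in RNA the share was 66.9% and 62.3%, 69.0% and 42.8%, 91.4% and 87.4%, and 86.2% and 85.3%. The peak lists differed in length, from 13149 peaks in E18.5 replicate 1 to 95257 in P3 replicate 1.

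A region was scored as gained if the pair of lists at the later age had a peak there and the pair at the earlier age had none, and as lost in the reverse case. No member gained a region at P1, where 2.77% of all genes tested did, 6 did at P3 (33.2% of all genes), 4 at P7 (21.5%), and 4 between P1 and P7 (23.9%). No member lost a region, against 5.21% of all genes at P1, 0.186% at P3, 0.093% at P7 and 0.959% between P1 and P7. With equal numbers of top peaks from each list, 1 member gained a region at P3 and 1 at P7. At that setting 1 member lost a region at P1, 2 at P3 and 1 at P7, so these counts move with list length. The share of all genes at that setting is not given here, so its counts cannot be set against it. The peak names of E18.5 replicate 1 and P7 replicate 1 share a prefix with those of P3 replicate 1, and both P1 lists share one with E18.5 replicate 2. Between lists of like prefix 9 members gained a region at P3 (56.0% of all genes), 6 at P7 (38.1%), and 5 and 2 at P1 (21.4% and 8.21%).

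Hsd11b1 held no promoter peak at E18.5 and gained 3 regions at P3, the first of which had the highest fold enrichment of those that members gained. This first region lay in the intron 1881 bases past the Hsd11b1-205 start, at chr1:193261839-193262549, overlapped no exon, and is the region printed above with ACAAGATGT. Its fold enrichment was 10.4 and 11.2 at P3 and 7.93 and 5.35 at P7, and no list at E18.5 or P1 held it. A region 172 bases past the Hsd11b1-201 start, chr1:193242277-193242637, was in both P3 lists (5.66 and 6.23) and in P7 replicate 2 (3.76). The region printed with ACAAATTGT, chr1:193243570-193244062, was in both P3 lists only (5.33 and 4.34). RNA of Hsd11b1 was already above its fetal level at P1, when neither list held a peak at these 3 regions. P1 replicate 1 alone held a peak elsewhere, 1014 bases before the Hsd11b1-205 start (4.96). The P1 lists held 29281 and 19753 peaks and the P3 lists 95257 and 52040. A peak missing from the shorter P1 lists therefore does not show closed chromatin.

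Of the 4 receptor genes, Nr3c1, Nr3c2 and Thrb held a promoter region in all 8 lists, and Thra did not. Nr3c1 held 2 regions around its starts in all 8 lists, at fold enrichments of 4.42 to 7.03 and 3.87 to 5.79. Nr3c2 held its main promoter region in all 8 lists (5.15 to 10.8), although its RNA was under 1 FPKM, and gained a further region near the Nr3c2-207 start at P3 and P7, which P1 replicate 1 held too (2.87 to 4.50 over 5 lists). Thrb likewise held its promoter in all 8 lists (3.62 to 9.47) at RNA levels under 1 FPKM.

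Thra held no promoter peak in E18.5 replicate 2. It gained a region 141 bases before the Thra-205 start at both P3 and P7 (3.80 to 4.79). Its intronic region with AGGTCA, chr11:98754726-98755219, was in 7 of the 8 lists (3.71 to 5.21). Dio2 held regions only in P3 replicate 1 and P7 replicate 2 (4.09 to 5.31).

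Among the targets, Fkbp5, Klf9 and Sgk1 each held a main promoter region in all 8 lists, at 4.45 to 12.5, 4.97 to 8.90 and 3.93 to 6.69. The Fkbp5 region printed above, with ACATTGTGT and an arm of the element, was in 7 of the 8 lists (3.08 to 5.20). The palindromic element of Sgk1 lay between regions: chr10:21993118-21993322, in 3 lists, ended before it, and the region held by all 8 lists began after it at 21993925. Sgk1 also gained a region 640 bases before the Sgk1-203 start at P3 and P7 (2.64 to 3.79).

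At Tsc22d3 the proximal start held a region in E18.5 replicate 1, in neither P1 list and in all 4 later lists (6.17 to 7.84 over 5 lists), and a region 1313 bases past the distal start was in E18.5 replicate 2 and the same 4 later lists (4.32 to 6.37). Regions near both starts were thus held by all lists of P3 and P7, when RNA of the gene was lower than at P1. The lists of E18.5 and P1 were shorter, with 13149 to 29281 peaks against 35898 to 95257 at P3 and P7. A region missing from the shorter lists does not show closed chromatin.

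**Figure D4:**
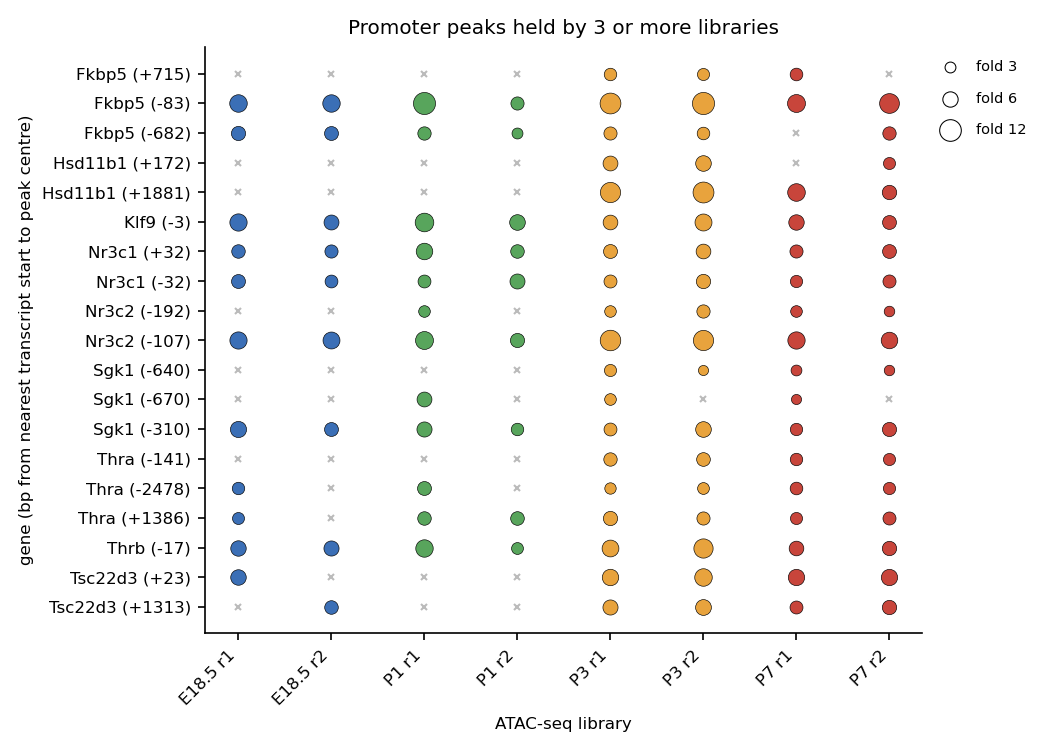
Fold enrichment of each promoter region that 3 or more ATAC-seq lists held, by library; the number after a gene is the distance in bases from its nearest transcript start to the centre of the region. Dot area follows fold enrichment and a cross marks no peak; Hsd11b1 (+1881) is in the 4 lists of P3 and P7 only, and the main regions of Nr3c1, Klf9 and Thrb are in all 8.

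In the NRVCs no member was called between TSA and DMSO by limma, while 2.13% of the 13625 genes tested were, 1.81% higher and 0.316% lower. The count over all genes, 290, was 33 without TSA replicate 2, 61 without TSA replicate 1, 65 without DMSO replicate 1, 92 without DMSO replicate 2 and 458 without DMSO replicate 3. At an unadjusted p under 0.05, 3 of the 8 members and 2699 of the 13625 genes tested differed, and none of the 13 alternatives run, limma-voom among them, called a member. With 3 libraries against 3 the exact permutation test, two-sided, cannot go below 0.1. The TSA libraries of Nr3c2, Hsd11b1 and Fkbp5 all lay above the DMSO libraries, which held for 17.1% of all genes tested in that direction.

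Fkbp5 was at 4.71, 3.66 and 6.30 FPKM under DMSO and 7.03, 7.96 and 9.11 under TSA. The change was 0.63 ± 0.19 (limma adjusted p 0.128, and 0.0732 with the replicate number as a block). Hsd11b1 was at 19.8, 22.1 and 14.9 FPKM under DMSO and 27.2, 25.2 and 47.9 under TSA, so the third TSA library was well above the others. Its change was 0.75 ± 0.26 (adjusted p 0.177). Nr3c2 was at 3.78, 3.63 and 3.82 FPKM under DMSO and 4.73, 5.67 and 5.49 under TSA, with a change of 0.41 ± 0.12 (adjusted p 0.129).

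The other receptors overlapped between treatments or were low. Nr3c1 was at 30.3, 27.7 and 31.1 FPKM under DMSO and 27.5, 28.1 and 22.8 under TSA (-0.18 ± 0.11, limma adjusted p 0.438). Thra was at 72.3, 70.4 and 43.2 and at 62.8, 61.5 and 48.5 FPKM (-0.08 ± 0.22), where the third library of each group was the lowest. Thrb was at 0.46, 0.40 and 0.52 and at 0.27, 0.33 and 0.36 FPKM, under the filter, with every TSA library below every DMSO library.

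Of the remaining targets, Tsc22d3 was at 33.2, 33.6 and 29.5 FPKM under DMSO and 31.2, 28.2 and 19.4 under TSA (-0.30 ± 0.18, limma adjusted p 0.413). Sgk1 was at 20.3, 22.3 and 9.28 and at 17.9, 14.0 and 10.4 FPKM (-0.22 ± 0.34, adjusted p 0.785). Klf9 was at 11.8, 9.80 and 11.8 and at 10.4, 11.6 and 11.0 FPKM, a change of -0.01 ± 0.12 (adjusted p 0.979). Groups overlapped for all of these. Dio2 was at 0 in 5 rat libraries and at 0.025 FPKM in the third TSA library.

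**Figure D5:**
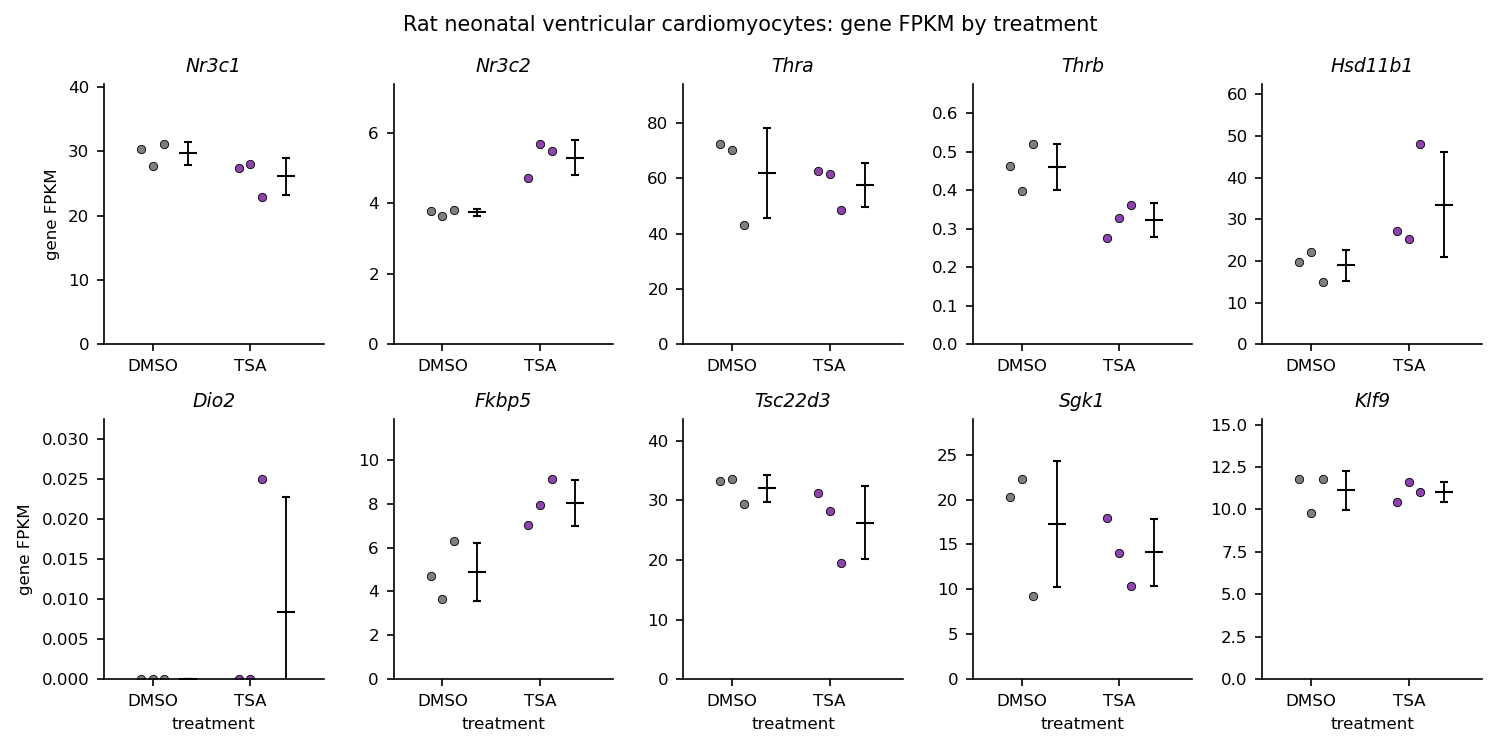
Gene FPKM of the 10 members in rat neonatal ventricular cardiomyocytes under DMSO and TSA, on an axis from 0 for each gene. Dots are the 3 libraries of a treatment and the bar beside them is the mean ± SD; Fkbp5, Hsd11b1 and Nr3c2 are higher in all 3 TSA libraries than in any DMSO library, and none of the 10 was called.

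Of the pathway lists in rat, 1 of 9 thyroid transport and partner genes and 1 of 11 thyroid targets of the heart tested were called, both higher under TSA. Over all genes tested 1.81% were called higher and 0.316% lower. Crym, a crystallin that binds thyroid hormone in the cytosol, rose from 2.92, 2.91 and 8.35 to 19.5, 18.4 and 24.6 FPKM (2.05, limma adjusted p 0.0303). Hcn2, a pacemaker channel, rose from 11.0, 10.7 and 6.26 to 23.0, 24.8 and 38.2 FPKM (1.52, adjusted p 0.0315). None of 13 chaperones and cofactors, 2 supply genes and 17 other corticosteroid targets tested was called. Of the marker lists, 1 endothelial, 1 smooth muscle and pericyte, 1 macrophage and 1 epicardial gene were called higher, and no cardiomyocyte, fibroblast, erythroid or immediate early gene was called.

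The genes whose mouse pattern was most like that of a member were found by Pearson's r of log2(FPKM + 1) over the 8 libraries, which share the marker differences given above, among 13978 other genes. For Hsd11b1 they were Nuf2 (r = 0.997) and Ppp1r14a (0.995). Nuf2, a kinetochore protein, went from 11.8 and 14.7 to 24.7 and 25.8 FPKM, and Ppp1r14a, an inhibitor of myosin phosphatase in smooth muscle, from 1.25 and 2.45 to 31.7 and 34.3. For Tsc22d3 they were Eci1 (0.997), a mitochondrial enzyme of fatty acid oxidation that went from 155 and 195 to 27.5 and 20.7 FPKM, and Gm39214 (0.996).

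For Klf9 the nearest genes were Necap1 (0.992) and Glcci1 (0.991), a gene named for its induction by glucocorticoids that went from 4.79 and 3.44 FPKM at E18.5 to between 0.33 and 1.27 later. For Fkbp5 they were Il17rc (0.992) and Sqor (0.992), for Thra Gm43566 and 4931440P22Rik (both 0.994), for Sgk1 Ippk (0.967) and Ctnnbip1 (0.957), and for Nr3c1 Fam136a (0.933) and Zzz3 (0.931). The values for Nr3c1 and Sgk1 were the lowest of these.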

How the data were processed

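Per the submitters' processing notes and the study's methods, the authors aligned RNA-seq reads with HISAT2 2.1.0 to mm10 or rn6 and quantified annotated transcripts with StringTie 1.3.5 (1.3.4d in the rat file headers). The deposited files give each transcript's FPKM, TPM and mean read coverage for 1 library each. The authors' ATAC-seq peaks were called by MACS2 in each library, and the deposited lists give a score, the fold enrichment as a ratio over local background, and the −log10 p-value and q-value. Library preparation did not keep strand. HiChIP samples were not analysed here.

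FPKM was summed per gene, and genes at 1 FPKM or more in 2 mouse or 3 rat libraries were tested on log2(FPKM + 1) with limma 3.58.1 (R 4.3.3), by empirical Bayes with a trend, two-sided, over all genes (13979 in mouse, 13625 in rat). The 8 mouse libraries shared a fit. The study's count test was not repeated, since the values are not counts. The script was tested on simulated data. Members, gene lists and motifs were chosen with earlier results of these data known. Named beside the members were the 2 most alike genes of each and the 2 called members of largest rise and fall of each pathway list, some of which are not reported here. Peaks were assigned within 2.5 kb of GENCODE transcript starts. Depth was estimated from coverage and transcript length. In rat the deviations of same-numbered libraries correlated (r 0.194 to 0.346 over 3 pairs). DMSO replicate 2 correlated with TSA replicate 1 too (0.167). Replicate 3 of either treatment correlated at -0.270 to -0.200 with replicates 1 and 2 of the other. Whether the numbers mark true pairs is thus not settled. The rat values given are from the fit without pairs, and pairing entered only in the replicate block.

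Promoter sequences are from RefSeq (GRCm38.p6), whose table matched 8 of the 10 members by symbol, all but Thra and Nr3c1. Alternatives were another pseudocount, other filters, TPM, size factors, limma-voom, a replicate block, only the time points compared, each library left out, and for peaks equal list lengths, a 1 kb window and protein-coding starts. Pairs of like peak-name prefix and Thra without its Nr1d1 overlap were added after seeing the data.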

Additional observations from a re-analysis of the deposited data

How the results depend on the processing

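The count of members called in either direction was 1 to 4 in every mouse comparison and setting except P7 against P1 without P7 replicate 2, where it was 0. It was 0 in rat throughout. For P7 against P1 it was 1 with a pseudocount of 0.1, 1 with no filter, and 0 to 2 when a library was left out, against 2. Regions gained ranged from 0 to 4 at P1 when a list was left out (main 0), with no share of all genes given. In the pairs of like prefix at P1 they were 5 and 2 (21.4% and 8.21% of all genes). With equal numbers of top peaks 1 member gained a region at P3, 1 at P7 and 2 between P1 and P7. At that setting 1 member lost a region at P1, 2 at P3 and 1 at P7, with no share of all genes given. In pairs of like prefix, losses were 1 in each P1 pair (9.46% and 27.9% of all genes) and 1 in the P7 pair (2.37%). When a list was left out, losses were 0 to 1 for P1, 0 to 1 for P7 and 0 to 2 for P7 against P1, with no share given. The cause was not tested.

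Of the values of single members under the alternatives, 517 kept their direction and side of the thresholds, 16 lost a call, 5 gained one and 17 changed direction, none of them called. Nr3c1 at P3 was -0.075 with size factors and -0.21 to 0.34 with a library left out, and at P7 -0.027 to 0.44. From P1 to P7, Thra was -0.12 to 0.17 with a library left out and -0.033 without the transcripts that overlap Nr1d1, and Klf9 was 0.0051 with TPM, 0.0049 with size factors and -0.093 to 0.058 with a library left out. In rat, with a library left out, Thra was -0.31 to 0.051, Sgk1 -0.59 to 0.0018 and Klf9 -0.088 to 0.033. The replicate block left the count of members called at 0 in rat and changed no member's call, while 339 genes were called with it against 290. In mouse the same-numbered libraries correlated at -0.0964 to 0.1713 over 12 pairs. With 2 libraries at each time point, both numbers give the same value, so these pairs are not independent. Whether the numbers mark true pairs is not settled in mouse either.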
